A study of Danio rerio with 12 samples.

Results

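The comparison set sorted macrophages of csf1rDM embryos at 28 h post-fertilisation (hpf), the young mutant cells, against macrophages of control embryos at 50 hpf, the older wild-type cells. It took 6 of the 12 libraries of the study, 3 a group, and all 16429 genes that passed a filter on low counts out of 35117 gene IDs. csf1rDM zebrafish were homozygous for csf1ra j4e1 and for csf1rb re01. Controls were wild-type fish that the study describes as carrying only reporter transgenes, and they were not stated to be siblings of the mutants. Besides the GFP reporter, the study lists an shhb:KalTA4, UAS-E1b:mCherry transgene for the control animals. Whether csf1rDM fish carried that transgene was not stated. Every library of both genotypes came from embryos with a tg(mpeg-GFP) reporter, whose promoter is active in macrophages, and from a pool of 35 embryos, except that csf1rDM at 50 hpf took pools of 70. The pigment blocker PTU was added to the medium of all embryos before 28 hpf, so those taken at 50 hpf had been in it longer. GFP+ cells were sorted into lysis reagent and their RNA was amplified and sequenced. The remaining groups, csf1rDM at 50 hpf and control at 28 hpf, were used as side values.

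Genotype and stage differ together in this comparison and cannot be told apart within it. Line background cannot be told apart from genotype either. The question was which changes of control macrophages between 28 and 50 hpf the mutant cells already showed at 28 hpf and which they lacked. The opposite pair, csf1rDM at 50 hpf minus control at 28 hpf, shares no library with the comparison, so it was used to sort the genes. A gene that passed in both with opposite signs was put in the stage direction, since its sign went with the stage, and one that passed in both with the same sign was put in the genotype direction. The sorting uses signs only and is not a separate estimate of each effect. The labels do not say whether the pools of a group came from separate clutches, so p-values measure the spread between these pools. In sorted bulk RNA, fewer cells of a state and less RNA per cell cannot be told apart.

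Csf1r is the receptor tyrosine kinase for the cytokines Csf1 and Il34, and it controls survival, proliferation and differentiation of macrophages. Zebrafish have a pair of paralogues, csf1ra and csf1rb. The first macrophages of the embryo spread over the tissues while they still divide. They then build up the machinery of resident phagocytes, which comprises engulfment receptors, lysosomal proteases, complement and antigen presentation, and those that enter the brain become microglia.

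The csf1rDM 28 hpf libraries held 8641139 to 15561536 counts and the control 50 hpf libraries 14820285 to 20261650 counts. Replicates correlated with a Pearson's r of log2 CPM (TMM-scaled counts as CPM) across genes of 0.919 to 0.953 in csf1rDM at 28 hpf and of 0.962 to 0.978 in control at 50 hpf, and each pair differed by more than sampling noise. On principal components of all 12 libraries, csf1rDM 28 hpf replicate 3 stood apart from its group on component 2, at 82.8 against 34.4 and 44.8 for the other two. Skeletal muscle markers summed to 150.2, 929 and 4445 CPM in the csf1rDM 28 hpf libraries and to 5208, 4692 and 10.1 CPM in the control 50 hpf libraries, so both groups held libraries with muscle RNA. None of the 15 tested muscle markers passed in the comparison (0 at an unadjusted p under 0.05, 0 by DESeq2). Keratinocyte markers summed to 9247 to 10163 CPM in csf1rDM at 28 hpf and 5884 to 6805 CPM in control at 50 hpf, without overlap. Counts without the 4 libraries above 2000 CPM, which left 1 control 50 hpf library, were chosen after seeing the data and are given beside the list counts, as the number of members that passed in that setting.

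Macrophage marker genes were transcribed in every library of both groups, at levels that differed for some of them. The abundant mpeg1 ID, which encodes a pore-forming protein of macrophages, had 3173, 3311 and 3292 CPM in the csf1rDM 28 hpf libraries, against 3523, 3715 and 3628 CPM in the control 50 hpf libraries. Transcripts of irf8, a transcription factor that macrophages need, had 503 to 529.8 CPM in csf1rDM at 28 hpf and 330.4 to 373 CPM in control at 50 hpf. Those of ptprc, which encodes the leukocyte phosphatase CD45, had 702.9 to 889.9 CPM and 521 to 630 CPM. Both were thus higher in the young mutant libraries without overlap. A less abundant mpeg1 ID passed as higher, at 151.5, 40.9 and 51.4 CPM against 28.7, 24.1 and 17.7 CPM. Of the other markers, marco passed as lower, and lcp1, coro1a and some of the mfap4 IDs as higher. One of these mfap4 IDs had 171, 189 and 164 CPM against 65.7, 75.9 and 88.5 CPM. Other mfap4 IDs did not pass, among them the most abundant, at 4332, 3305 and 3775 CPM against 2801, 3238 and 3477 CPM. The mutated receptors were also transcribed. csf1ra had 239, 301 and 273 CPM in csf1rDM at 28 hpf, against 445, 349.7 and 416 CPM in control at 50 hpf (log2 change -0.57 with SE 0.109, adjusted p by edgeR 0.00156). csf1rb had 61.4, 92.2 and 97.8 CPM in csf1rDM at 28 hpf, against 441, 257 and 295 CPM in control at 50 hpf, lower in all 3 mutant libraries (log2 change -1.98 with SE 0.217, adjusted p by edgeR 2.02e-05). In control at 28 hpf csf1ra had 227, 235 and 214 CPM, below csf1rDM at 28 hpf without overlap. By contrast csf1rb had 135, 136 and 161 CPM there, above csf1rDM at 28 hpf without overlap. Neither receptor gene passed in csf1rDM at 28 hpf minus control at 28 hpf. Whether these transcripts make functional receptors was not measured, and the paralogues may share reads.

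Across all genes, 1514 of 16429 passed both thresholds (adjusted p by edgeR below 0.01 and log2 fold change beyond 1 in either direction), which is 9.22%. Among them 599 (3.65%) were higher in csf1rDM at 28 hpf and 915 (5.57%) were lower, and the median log2 fold change of all tested genes was -0.06. Without the 4 libraries with muscle RNA, 656 genes passed. In csf1rDM at 50 hpf minus control at 28 hpf, the number past the thresholds was 2544 (15.5%), with 1383 (8.42%) higher and 1161 (7.07%) lower in the mutant cells. Of the 1514 genes, 443 (29.3%) lay in the stage direction, of which 327 were lower and 116 higher in the young mutant cells. A further 220 (14.5%) lay in the genotype direction, 110 higher and 110 lower. The remaining 373 higher and 478 lower genes passed only in the young mutant against the older control and were not sorted. Across the 16429 genes the fold changes of both comparisons had a Pearson's r of -0.13 and a Spearman's rho of -0.15, as a description, since genes are not independent replicates.

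**Figure D1:**
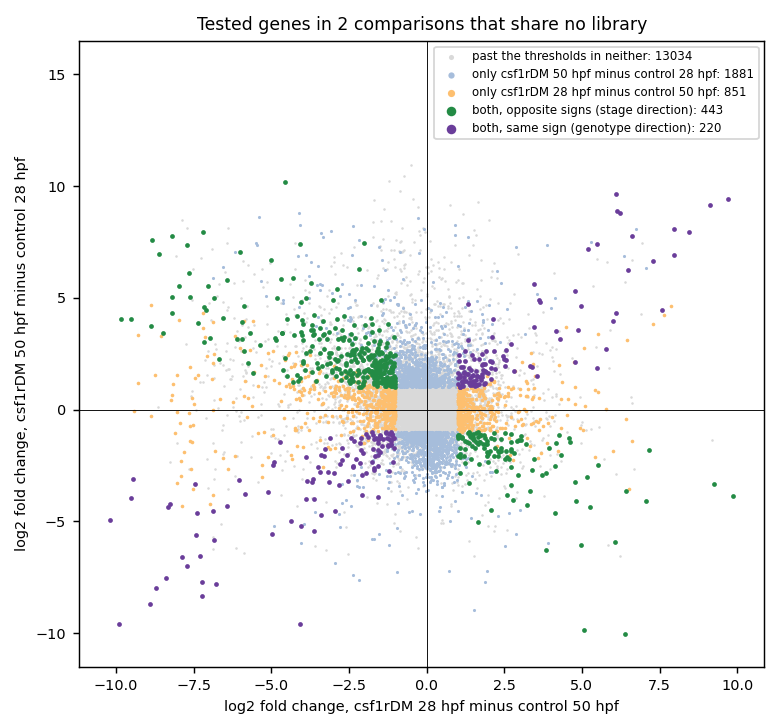
Log2 fold change of each tested gene in csf1rDM 28 hpf minus control 50 hpf (x axis) and in csf1rDM 50 hpf minus control 28 hpf (y axis), 1 point a gene. Green points are the 443 genes of the stage direction, most of them at the upper left (327), and purple points are the 220 genes of the genotype direction, 110 on each side.

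Maturation of the control cells was set beside these values. In control at 50 hpf minus control at 28 hpf, 704 genes rose (4.29% of those tested) and 329 fell (2%), or 6.29% together. That comparison shares the control 50 hpf libraries with the young mutant against the older control, so the counts that follow describe the sorting and are not independent evidence. Of the 704 genes that rose in controls, 442 were lower in csf1rDM at 28 hpf than in control at 50 hpf, and 3 were higher. Of the 329 that fell, 210 were higher in csf1rDM at 28 hpf and 1 was lower. In the other direction, csf1rDM at 28 hpf minus control at 28 hpf, where 1.84% of tested genes were higher and 2.23% lower (4.08% together), 62 of the 704 were higher and 46 were lower in the mutant cells, and 25 of the 329 were lower and 26 were higher. That comparison shares the control 28 hpf libraries with the control comparison. For 79 of the 704 (11.2%) and 49 of the 329 (14.9%), the 95% interval of the log2 fold change against control at 50 hpf lay within -1 to 1, against 44.9% of all tested genes.

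Genes that respond to glucocorticoids and genes of the circadian clock were among those that the young mutant cells lacked. Of 32 tested genes of this list, 10 passed and all 10 were lower in csf1rDM at 28 hpf than in control at 50 hpf, with a median log2 fold change of -0.99 against -0.06 for all genes (1 gene was higher and 21 lower at an unadjusted p under 0.05). Over all 16429 tested genes, 5.57% passed as lower and 3.65% as higher, and 2873 were higher and 3454 lower at that unadjusted level. In csf1rDM at 50 hpf minus control at 28 hpf, 10 genes of the list passed, all higher, with a median of 0.98, and 8 genes lay in the stage direction. Of all tested genes in that pair, 8.42% were higher. The klf9 gene, which encodes a Krüppel-like transcription factor induced by glucocorticoids, had 1, 0 and 1 counts in the csf1rDM 28 hpf libraries (0.121, 0 and 0.0713 CPM, against 17.3, 22.5 and 15.2 CPM in control at 50 hpf). The scaled ratio of csf1rDM at 28 hpf to control at 50 hpf was 0.00288 (95% exact interval 0.000348 to 0.0104, counting error only). It was thus close to 0 in the young mutant libraries and present in every older control library. Control at 28 hpf was close to 0 as well, at 0, 1 and 5 counts, and csf1rDM at 50 hpf had 25.7, 31.3 and 37.6 CPM. The fkbp5 gene, which encodes a chaperone that binds the glucocorticoid receptor, had 11.9, 10.9 and 14.8 CPM in csf1rDM at 28 hpf, against 332, 391 and 329 CPM in control at 50 hpf. The groups did not overlap, and the difference was far larger than the spread (log2 change -4.80 with SE 0.165, adjusted p by edgeR 1.83e-09). It averaged 366 ± 17.6 CPM in csf1rDM at 50 hpf and 11.7 ± 2.46 CPM in control at 28 hpf. For nr1d2a, which encodes a nuclear receptor that represses clock genes, the values were 13, 11.8 and 12.1 CPM in csf1rDM at 28 hpf, against 158, 164 and 162 CPM in control at 50 hpf (log2 change -3.72 with SE 0.163, adjusted p by edgeR 9.04e-09). Lower levels without overlap were also found for tsc22d3, a glucocorticoid-induced leucine zipper gene (log2 change -1.52 with SE 0.142, adjusted p by edgeR 4.99e-06), and for the clock output factor tefb (log2 change -1.31 with SE 0.111, adjusted p by edgeR 2.11e-06). Without the libraries with muscle RNA, 8 genes of this list passed.

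Lysosomal proteases were divided. Of 41 tested cathepsins and lysosomal hydrolases, 7 were lower and 1 was higher in csf1rDM at 28 hpf, with a median of -0.09. Among all tested genes, 5.57% were lower and 3.65% higher. The cysteine protease gene ctsl.1 had 34.7, 39 and 49.9 CPM in csf1rDM at 28 hpf, against 730.1, 869 and 652 CPM in control at 50 hpf (log2 change -4.18 with SE 0.209, adjusted p by edgeR 2.23e-08). All 3 mutant libraries were low and did not overlap with the older controls, whereas csf1rDM at 50 hpf averaged 1082 ± 49.2 CPM against 59.6 ± 17.9 CPM in control at 28 hpf. Values of ctsk, which encodes a collagen-degrading cathepsin, were 50.4, 49.3 and 76.2 CPM in csf1rDM at 28 hpf, against 520.3, 812 and 599 CPM in control at 50 hpf (log2 change -3.46 with SE 0.2, adjusted p by edgeR 7.96e-08). The abundant aspartic protease gene ctsd did not pass, with 1702, 1638 and 1681 CPM in csf1rDM at 28 hpf, against 1704, 1835 and 1802 CPM in control at 50 hpf (log2 change -0.09 with SE 0.0399, adjusted p by edgeR 0.119, 95% interval -0.18 to -0.00). Its groups lay within a narrow range although those of ctsl.1 and ctsk were far apart. Among 14 subunits of the proton pump that acidifies lysosomes 0 passed (8 higher and 1 lower at an unadjusted p under 0.05, 0 by DESeq2), and the intervals of 12 lay within -1 to 1. The median was 0.37. Their summed level was 8336 to 8751 CPM in csf1rDM at 28 hpf and 5770 to 6536 CPM in control at 50 hpf, without overlap. Control at 28 hpf held 8596 to 9241 CPM. Among 19 genes of lysosomal membrane proteins and lipid efflux, 4 passed, all lower. One was the apolipoprotein gene apoeb, which microglia use in lipid transport, with 15.3, 4.73 and 3.35 CPM in csf1rDM at 28 hpf, against 271, 237 and 167 CPM in control at 50 hpf (log2 change -4.93 with SE 0.844, adjusted p by edgeR 0.000756). Another was apoc1, with 0 counts in all 3 csf1rDM 28 hpf libraries and 8.56, 7.51 and 7.87 CPM in the control 50 hpf libraries. Paralogues of the ctsl and apo families can share reads, so that the split between their members is uncertain.

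Engulfment receptors were lower in part of the list. Of 20 tested scavenger and engulfment receptors, 9 were lower and 1 was higher, with a median of -0.80, and 6 of the 9 lay in the stage direction. Among all tested genes, 5.57% were lower and 3.65% higher. The scavenger receptor gene stab1, whose product takes up modified lipoproteins and dying cells, had 21.2, 27.8 and 31.5 CPM in csf1rDM at 28 hpf, against 408, 279 and 327 CPM in control at 50 hpf (log2 change -3.65 with SE 0.186, adjusted p by edgeR 2.65e-08). Its young mutant libraries lay far below the older controls, with no overlap. For marco, which encodes a receptor for bacteria and particles, the values were 125, 125 and 134 CPM in csf1rDM at 28 hpf, against 484, 443 and 459 CPM in control at 50 hpf (log2 change -1.85 with SE 0.0686, adjusted p by edgeR 2.53e-09). Control at 28 hpf had 220, 232 and 205 CPM of marco, also above the young mutant libraries without overlap. The mannose receptor gene mrc1b had 111, 174 and 219.9 CPM in csf1rDM at 28 hpf, against 836, 519.7 and 515 CPM in control at 50 hpf (log2 change -1.89 with SE 0.23, adjusted p by edgeR 5.15e-05). Each of these groups was separated, and mrc1b also varied within both. The receptor tyrosine kinase gene mertka, which mediates uptake of apoptotic cells, was lower in all 3 mutant libraries (log2 change -1.59 with SE 0.111, adjusted p by edgeR 3.92e-07), and timd4, a receptor for phosphatidylserine, was lower as well (log2 change -2.56 with SE 0.301, adjusted p by edgeR 3.66e-05). Only anxa5b, which encodes a phosphatidylserine-binding annexin, was higher among the members past the thresholds, at 50.3, 40.3 and 35.7 CPM in csf1rDM at 28 hpf, against 5.38, 6.51 and 3.77 CPM in control at 50 hpf. In csf1rDM at 28 hpf minus control at 28 hpf, timd4 passed as lower and anxa5b as higher. Of 17 complement genes, 2 passed, both lower, against 9.22% of all tested genes that passed in either direction. At an unadjusted p under 0.05, 3 complement genes were higher and 7 lower, against 2873 and 3454 of all 16429 tested genes. The median of the complement list was -0.90 and came to 0.09 without the libraries with muscle RNA. It was not stable, since leaving out 1 library in turn gave medians from -0.90 to 0. Without csf1rDM 50 hpf replicate 2, 4 complement genes passed. The C1q chain gene c1qc had 24.4, 31.7 and 22.5 CPM in csf1rDM at 28 hpf, against 167, 180.4 and 186 CPM in control at 50 hpf (log2 change -2.76 with SE 0.139, adjusted p by edgeR 2.3e-08), and c1qa had 11.3, 10.7 and 11.1 CPM in csf1rDM at 28 hpf, against 36.6, 44.2 and 39.3 CPM in control at 50 hpf (log2 change -1.86 with SE 0.135, adjusted p by edgeR 5.61e-07). Its partner c1qb did not pass the fold change threshold, with 48.3, 57.1 and 49.5 CPM in csf1rDM at 28 hpf, against 87.8, 100.03 and 102 CPM in control at 50 hpf, although the groups were also separate (log2 change -0.90 with SE 0.106, adjusted p by edgeR 3.6e-05). All 3 chains were thus below the older controls in every young mutant library. Without the libraries with muscle RNA, 8 engulfment genes and 3 complement genes passed.

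Genes that accompany the entry of macrophages into the brain showed the same order of groups in some members. Of 22 tested microglia colonisation genes, 6 were lower and 1 was higher (4 passed in all without the libraries with muscle RNA). The lower ones include csf1rb, apoeb, c1qa and c1qc, which are already given above. The chemokine gene ccl34b.1, a marker of zebrafish microglia, had 2.43, 4.32 and 3.14 CPM in csf1rDM at 28 hpf, against 342, 358 and 338 CPM in control at 50 hpf (log2 change -6.67 with SE 0.234, adjusted p by edgeR 1.83e-09). In csf1rDM at 50 hpf it averaged 55 ± 10.6 CPM, against 11.6 ± 2.4 CPM in control at 28 hpf (log2 change 2.25 with SE 0.19, adjusted p by edgeR 1.47e-06). The mutant value at 50 hpf lay above the young cells of both genotypes and below the older controls. The gene slc7a7, which encodes an amino acid transporter needed for microglial precursors, was also lower but did not pass the fold change threshold. It had 528, 545 and 533 CPM in csf1rDM at 28 hpf, against 697, 728 and 715 CPM in control at 50 hpf, without overlap (log2 change -0.41 with SE 0.0546, adjusted p by edgeR 9.6e-05). Of 22 chemokine and migration receptors, 4 were lower and 4 were higher. For this and the microglia list, the shares over all tested genes were 5.57% lower and 3.65% higher. The receptor gene ccr2 had 0.364, 0.27 and 0.143 CPM in csf1rDM at 28 hpf, against 29.9, 34.3 and 31 CPM in control at 50 hpf (log2 change -6.97 with SE 0.334, adjusted p by edgeR 1.76e-08). By contrast p2ry13, which encodes a purinergic receptor of microglia, was higher at 21.5, 24.8 and 19.6 CPM in csf1rDM at 28 hpf, against 10.8, 9.71 and 7.61 CPM in control at 50 hpf (log2 change 1.23 with SE 0.151, adjusted p by edgeR 5.51e-05), and it was also higher in csf1rDM at 50 hpf than in control at 28 hpf (log2 change 2.18 with SE 0.154, adjusted p by edgeR 3.06e-07). Receptors of this list lay on both sides, and 3 receptors passed without the libraries with muscle RNA.

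The summed level of antigen presentation genes was intermediate, largely through single MHC genes. The summed level of the list was 788 ± 64.04 CPM in csf1rDM at 28 hpf and 1440 ± 32.2 CPM in control at 50 hpf (SD, n = 3 each), with 1383 ± 98.4 CPM in csf1rDM at 50 hpf and 393 ± 19.6 CPM in control at 28 hpf. Of 21 tested genes, 6 were lower and 1 was higher than in the older controls, with a median of -1.03. Over all tested genes, 5.57% were lower and 3.65% higher. The MHC class II gene mhc2d4b held much of that sum and had 409.7, 343 and 438 CPM in csf1rDM at 28 hpf, against 755, 796 and 756 CPM in control at 50 hpf (log2 change -0.96 with SE 0.0901, adjusted p by edgeR 5.44e-06). It did not pass the fold change threshold against the older controls, and it was far above control at 28 hpf, which averaged 120.2 ± 9.88 CPM (log2 change 1.72 with SE 0.0923, adjusted p by edgeR 6.61e-07). The sum also held mhc1lda, an MHC class I gene of the genotype direction. It had 74.9, 58.1 and 77.4 CPM in csf1rDM at 28 hpf, against 0, 0.207 and 0.248 CPM in control at 28 hpf. Together mhc2d4b and mhc1lda held most of the difference between the sums of the young groups. The invariant chain gene cd74a, whose product guides class II molecules, was at 0 counts in all 3 young mutant libraries and at 3.75, 3.88 and 4.86 CPM in the older controls. Its paralogue cd74b summed to 3 counts in the young mutant group and 79 counts in the older controls, a scaled ratio of 0.0538 (95% exact interval 0.0109 to 0.163). Both invariant chain genes were near the limit of detection in both young groups. Control at 28 hpf held 3 counts of cd74a and 0 of cd74b. In csf1rDM at 50 hpf cd74a stayed at 2 counts, against 217 in control at 50 hpf, whereas cd74b had 53. The beta-2 microglobulin genes b2m (log2 change -1.33 with SE 0.313, adjusted p by edgeR 0.00665) and b2ml (log2 change -1.59 with SE 0.182, adjusted p by edgeR 3e-05) were lower. Interferon response genes were mixed, with 3 lower and 1 higher of 19, among them xaf1 at 1.21, 1.76 and 1.21 CPM in csf1rDM at 28 hpf, against 23.1, 22.4 and 22.1 CPM in control at 50 hpf (log2 change -3.99 with SE 0.334, adjusted p by edgeR 1.88e-06). MHC genes are a multigene family in which allele differences between lines and shared reads make counts uncertain. Without the libraries with muscle RNA, 5 antigen presentation genes and 2 interferon response genes passed. mhc2d4b passed in that setting at a log2 change of -1.0045, and without csf1rDM 28 hpf replicate 3 at -1.02.

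**Figure D2:**
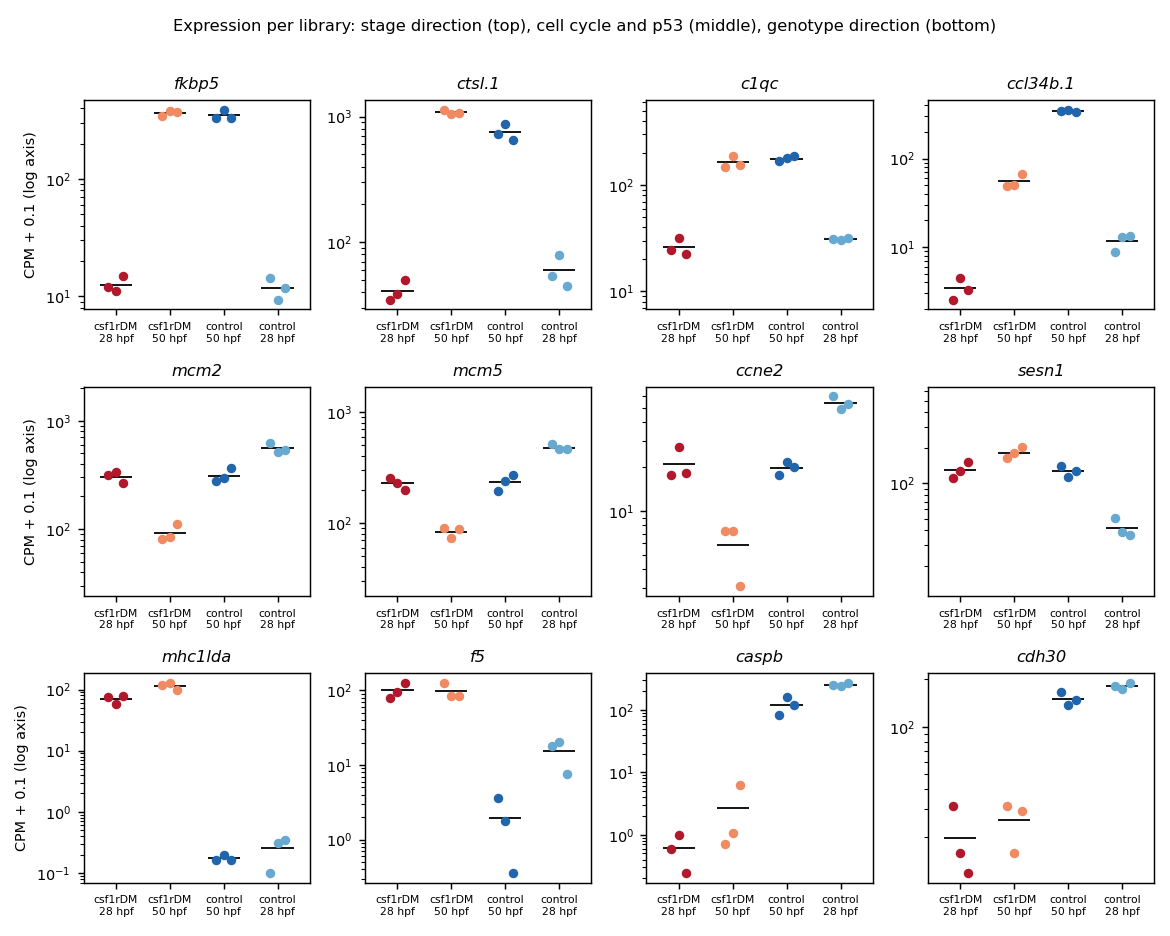
Expression of 12 genes as CPM + 0.1 on log axes, 1 point a library, with a line at the group mean, for csf1rDM 28 hpf, csf1rDM 50 hpf, control 50 hpf and control 28 hpf from left to right. In the top row csf1rDM 28 hpf lies far below control 50 hpf, in the middle row both overlap and lie apart from control 28 hpf, and in the bottom row both csf1rDM groups lie apart from both control groups.

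Replication genes in the young mutant cells were at the level of the older controls. Of 28 tested genes of the replication fork and clamp, 0 passed against the older controls (4 higher and 2 lower at an unadjusted p under 0.05, 0 by DESeq2), with a median of 0.10. Over all 16429 tested genes, 9.22% passed, and 2873 were higher and 3454 lower at that unadjusted level. The 95% intervals of 25 of the 28 lay within -1 to 1, against 44.9% of all tested genes and 90% of splicing factors. These shares also depend on expression level. Of the 28 genes, 26 averaged at least 10 CPM, against 8552 of the 16429 tested genes. Summed over the list, csf1rDM at 28 hpf held 1439.5, 1668 and 1775 CPM in rank order, and control at 50 hpf held 1494, 1795 and 1839 CPM. Both groups overlapped and lay below control at 28 hpf, at 2986 ± 73.8 CPM, and above csf1rDM at 50 hpf, at 687 ± 14.9 CPM (SD, n = 3 each). In csf1rDM at 50 hpf minus control at 28 hpf, 26 of the 28 fell, against 7.07% of all tested genes. The list median there was -1.99.

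Single genes showed this level. The mcm2 gene, which encodes a subunit of the replicative helicase, had 312, 336 and 265 CPM in csf1rDM at 28 hpf, against 275, 295 and 362 CPM in control at 50 hpf (log2 change -0.03 with SE 0.14, adjusted p by edgeR 0.902, 95% interval -0.33 to 0.27). Its groups overlapped. Another helicase subunit gene, mcm5, had 255, 230.4 and 197 CPM in csf1rDM at 28 hpf, against 195, 239.8 and 272 CPM in control at 50 hpf (log2 change -0.05 with SE 0.13, adjusted p by edgeR 0.819, 95% interval -0.33 to 0.23), against 478 ± 30.8 CPM in control at 28 hpf. The sliding clamp gene pcna had 558, 496 and 415 CPM in csf1rDM at 28 hpf, against 538, 703 and 726 CPM in control at 50 hpf and did not pass (log2 change -0.42 with SE 0.12, adjusted p by edgeR 0.0189), and the ribonucleotide reductase gene rrm1 had 341, 334 and 299.8 CPM in csf1rDM at 28 hpf, against 369.6, 405 and 435 CPM in control at 50 hpf (log2 change -0.31 with SE 0.0901, adjusted p by edgeR 0.0207). For these, the young mutant cells were near or somewhat below the older controls. Of 29 origin licensing and firing genes, 0 passed (6 higher and 2 lower at an unadjusted p under 0.05, 0 by DESeq2), and the intervals of 23 lay within -1 to 1. The share of all tested genes that passed, 9.22%, stands beside this list and the next. Of 18 genes of deoxynucleotide synthesis and S phase chromatin, 1 passed. That was dck, which encodes deoxycytidine kinase and was lower, with 7.53, 7.56 and 9.84 CPM in csf1rDM at 28 hpf, against 16, 21.1 and 20.2 CPM in control at 50 hpf (log2 change -1.20 with SE 0.237, adjusted p by edgeR 0.00214). It was also lower in csf1rDM at 50 hpf than in control at 28 hpf (log2 change -2.77 with SE 0.253, adjusted p by edgeR 2.7e-06). The count of this list was 0 without control 50 hpf replicate 2 or 3, without csf1rDM 28 hpf replicate 2 and without the libraries with muscle RNA, and 2 without control 50 hpf replicate 1 or csf1rDM 28 hpf replicate 1.

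**Figure D3:**
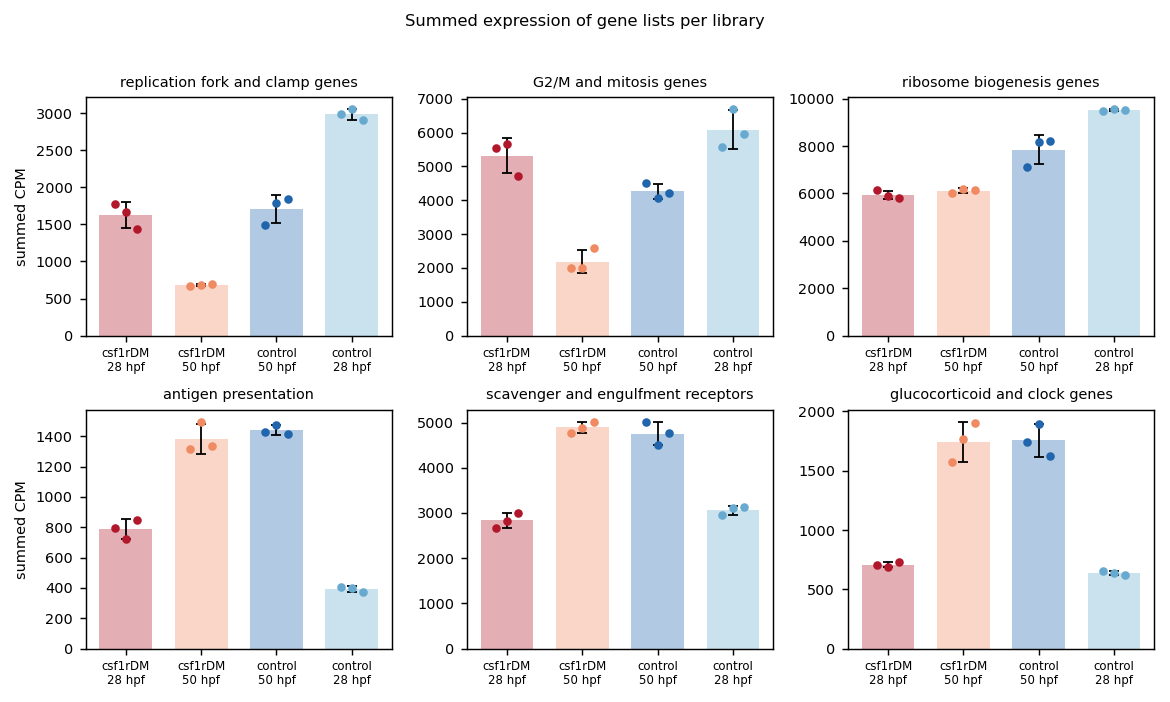
Summed CPM of 6 gene lists per library (points), with the group mean (bar) and SD (error bar) over 3 libraries, for csf1rDM 28 hpf, csf1rDM 50 hpf, control 50 hpf and control 28 hpf from left to right. Replication genes in csf1rDM at 28 hpf overlap with control at 50 hpf, whereas the sums of engulfment receptors in csf1rDM at 28 hpf overlap with control at 28 hpf. Glucocorticoid and clock genes in csf1rDM at 28 hpf, at 687 to 727 CPM, lie somewhat above control at 28 hpf, at 618 to 654 CPM. Both lie far below control at 50 hpf, at 1626 to 1898 CPM.

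No mitosis gene passed, and the summed level of the list was above that of the older controls. Over all 16429 tested genes 9.22% passed, and 2873 were higher and 3454 lower at an unadjusted p under 0.05. Of 68 tested G2/M and mitosis genes, 0 passed (24 higher and 0 lower at an unadjusted p under 0.05, 0 by DESeq2), the median was 0.30 and the intervals of 59 lay within -1 to 1. Their summed level was 5314 ± 520.2 CPM in csf1rDM at 28 hpf and 4264 ± 223 CPM in control at 50 hpf (SD, n = 3 each), with no overlap of the libraries. The summed level in control at 28 hpf was 6081 ± 573 CPM. The mitotic cyclin gene ccnb1 had 126, 112 and 89.8 CPM in csf1rDM at 28 hpf, against 76.4, 78.5 and 79.1 CPM in control at 50 hpf (log2 change 0.48 with SE 0.128, adjusted p by edgeR 0.0129), and the mitotic kinase gene cdk1 had 135, 147 and 111 CPM in csf1rDM at 28 hpf, against 114, 120.2 and 127 CPM in control at 50 hpf (log2 change 0.12 with SE 0.157, adjusted p by edgeR 0.622, 95% interval -0.22 to 0.46). The ccnb1 libraries were separate and those of cdk1 overlapped. For the next list, the count lay near the shares over all tested genes, 3.65% higher and 5.57% lower. Of 27 cyclins, kinases and E2F factors, 1 was lower and 1 was higher, and 1 passed without any one control 50 hpf library, without csf1rDM 28 hpf replicate 2 or 3, and without the libraries with muscle RNA. The lower one was ccnd1, a G1 cyclin gene that growth factor signals induce, with 117, 98.8 and 92.2 CPM in csf1rDM at 28 hpf, against 354, 354 and 376 CPM in control at 50 hpf (log2 change -1.82 with SE 0.114, adjusted p by edgeR 1.6e-07). Here the young mutant cells lay below all other groups, since csf1rDM at 50 hpf averaged 198 ± 27.6 CPM and control at 28 hpf 225 ± 14.7 CPM. The CDK inhibitor gene cdkn1a was lower in csf1rDM at 28 hpf, with 0.486, 1.15 and 0.998 CPM in csf1rDM at 28 hpf, against 3.5, 7.85 and 5.5 CPM in control at 50 hpf (log2 change -2.64 with SE 0.452, adjusted p by edgeR 0.000762), and higher in csf1rDM at 50 hpf than in control at 28 hpf (log2 change 1.73 with SE 0.443, adjusted p by edgeR 0.00715).

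**Figure D4:**
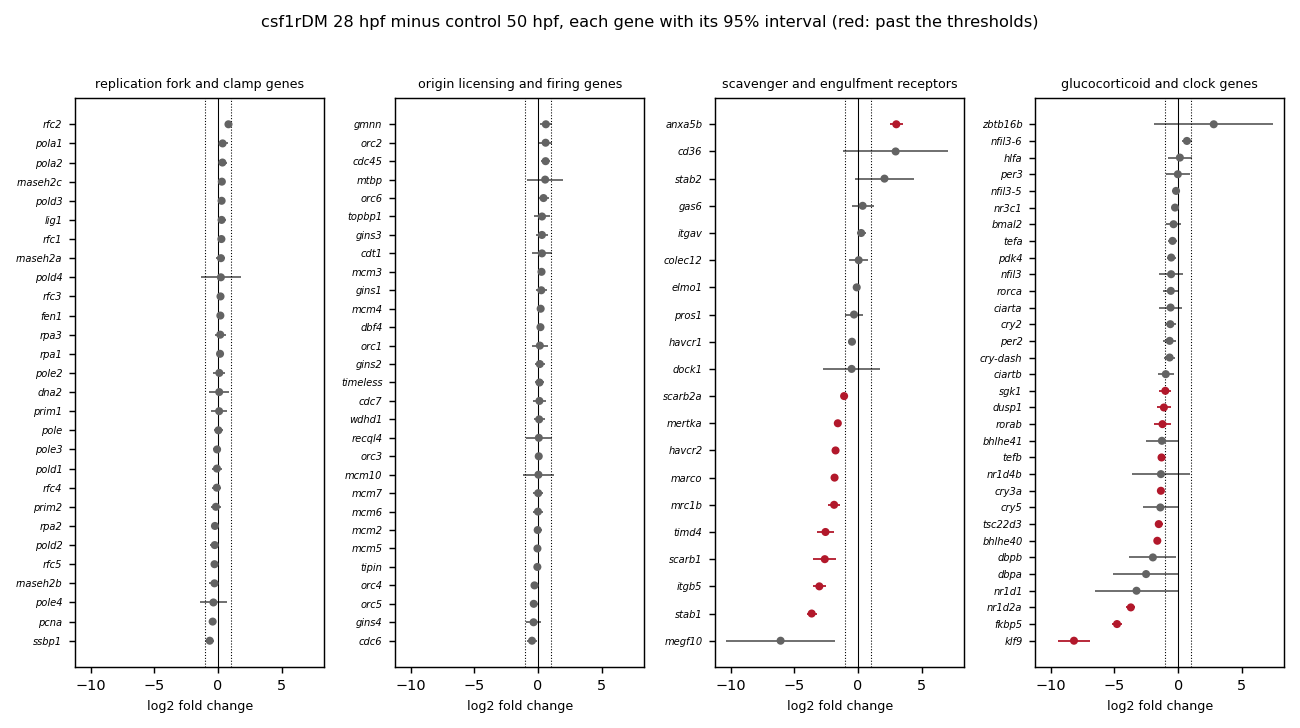
Log2 fold change of csf1rDM 28 hpf minus control 50 hpf for each tested gene of 4 lists (points) with its 95% interval (line), dotted lines at -1 and 1, red where the gene passed the thresholds. The intervals of 25 of 28 replication fork genes and 23 of 29 origin genes lie between the dotted lines, whereas 10 of 20 engulfment receptors and 10 of 32 glucocorticoid and clock genes passed. Of all tested genes, 9.22% passed.

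Over all tested genes, 48 of the 704 genes that rose in controls and 23 of the 329 that fell had also changed the same way in csf1rDM at 28 hpf minus control at 28 hpf and did not pass against control at 50 hpf. For 28 and 17 of these, the interval against control at 50 hpf lay within -1 to 1. All 3 comparisons share libraries, so these are descriptions. By the rule for named genes, the risen ones comprised sesn1, a p53 target gene whose product restrains growth signalling, with 111, 128 and 151 CPM in csf1rDM at 28 hpf, against 141, 112 and 126 CPM in control at 50 hpf (log2 change 0.04 with SE 0.148, adjusted p by edgeR 0.864, 95% interval -0.28 to 0.36), against 41.8 ± 7.52 CPM in control at 28 hpf. Its groups overlapped. The other risen genes were mhc2d4b, pargl (13.4, 14.1 and 12.9 CPM in csf1rDM at 28 hpf, against 17.4, 18.4 and 15.5 CPM in control at 50 hpf), the elongation factor gene tcea3 (25.4, 21.3 and 18.8 CPM in csf1rDM at 28 hpf, against 30, 35.1 and 30 CPM in control at 50 hpf) and epdl1 (11.4, 3.78 and 2.07 CPM in csf1rDM at 28 hpf, against 12.3, 13.7 and 15.7 CPM in control at 50 hpf). The pargl groups were close but separate, and epdl1 ranged widely among the mutant libraries. The tcea3 groups were separate too, with lower mutant values that missed only the fold change threshold (log2 change -0.54 with SE 0.137, adjusted p by edgeR 0.00975, 95% interval -0.84 to -0.25). For epdl1 the mutant values were lower and missed only the adjusted p threshold (log2 change -1.35 with SE 0.429, adjusted p by edgeR 0.0329). Without csf1rDM 28 hpf replicate 1, epdl1 passed at a log2 change of -2.24. The fallen genes comprised ccne2, a G1/S cyclin gene, with 17.5, 27.2 and 17.9 CPM in csf1rDM at 28 hpf, against 17.6, 21.2 and 19.8 CPM in control at 50 hpf (log2 change 0.10 with SE 0.259, adjusted p by edgeR 0.82, 95% interval -0.46 to 0.66), against 54.1 ± 5.57 CPM in control at 28 hpf. The meiotic and spindle checkpoint ATPase gene trip13 had 9.59, 10.9 and 6.7 CPM in csf1rDM at 28 hpf, against 7.88, 12.3 and 9.08 CPM in control at 50 hpf. The homeodomain gene hopx had 14.9, 14.6 and 17.7 CPM in csf1rDM at 28 hpf, against 24.6, 31.7 and 33.8 CPM in control at 50 hpf (log2 change -0.93 with SE 0.165, adjusted p by edgeR 0.000981). Its mutant values lay below the older controls without passing the fold change threshold, which hopx passed without control 50 hpf replicate 1 (-1.06) or csf1rDM 28 hpf replicate 3 (-1.02). The calmodulin gene calm1b (log2 change 0.75 with SE 0.388, adjusted p by edgeR 0.18) and si:ch73-170d6.3 (log2 change 0.32 with SE 0.262, adjusted p by edgeR 0.415) completed the rule, and both overlapped between the groups.

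Few ribosome biogenesis genes passed. Of 100 tested, 4 passed against the older controls and all 4 were lower, a share below the 5.57% of all tested genes that were lower, with a median of -0.44 (3 higher and 61 lower at an unadjusted p under 0.05). The summed level was 5939 ± 178 CPM in csf1rDM at 28 hpf and 7837 ± 609 CPM in control at 50 hpf (SD, n = 3 each), with no overlap, and csf1rDM at 50 hpf held 6115 ± 95.5 CPM against 9529.5 ± 46.004 CPM in control at 28 hpf. The nucleolar gene noc2l had 55.9, 53.1 and 47.1 CPM in csf1rDM at 28 hpf, against 112, 121 and 114 CPM in control at 50 hpf (log2 change -1.15 with SE 0.0872, adjusted p by edgeR 8.11e-07). It was lower in csf1rDM at 50 hpf than in control at 28 hpf as well (log2 change -1.02 with SE 0.0868, adjusted p by edgeR 1.53e-06). The others were nip7, ddx27 and nle1. Without the libraries with muscle RNA, 2 of the 100 passed. Of 82 cytosolic ribosomal protein genes 0 passed (14 higher and 5 lower at an unadjusted p under 0.05, 0 by DESeq2), and the intervals of 80 lay within -1 to 1. Of 90 nuclear subunits of oxidative phosphorylation, 4 passed and all were lower, namely cox4i1l, cox6b1, ndufa4b and cox8b. The ndufa4b gene had 53.1, 50.9 and 34.4 CPM in csf1rDM at 28 hpf, against 99.5, 134 and 167 CPM in control at 50 hpf (log2 change -1.53 with SE 0.217, adjusted p by edgeR 0.000166). All 4 lay in the stage direction, and 3 genes of the list passed without the libraries with muscle RNA. This share too was below that of all tested genes. The list median was -0.31, with 1 gene higher and 40 lower at an unadjusted p under 0.05. Over all 16429 tested genes, 2873 were higher and 3454 lower at that level. Summed levels did not overlap, at 8166 ± 280 CPM in csf1rDM at 28 hpf and 10340 ± 967 CPM in control at 50 hpf. In csf1rDM at 50 hpf minus control at 28 hpf the list median was also negative, at -0.42. Of 19 cholesterol synthesis genes 0 passed (1 higher and 6 lower at an unadjusted p under 0.05, 2 by DESeq2), with 7 intervals within -1 to 1. In this list 1 gene passed without control 50 hpf replicate 1, without csf1rDM 28 hpf replicate 1 and without csf1rDM 50 hpf replicate 1, and 2 passed without csf1rDM 50 hpf replicate 2.

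**Figure D5:**
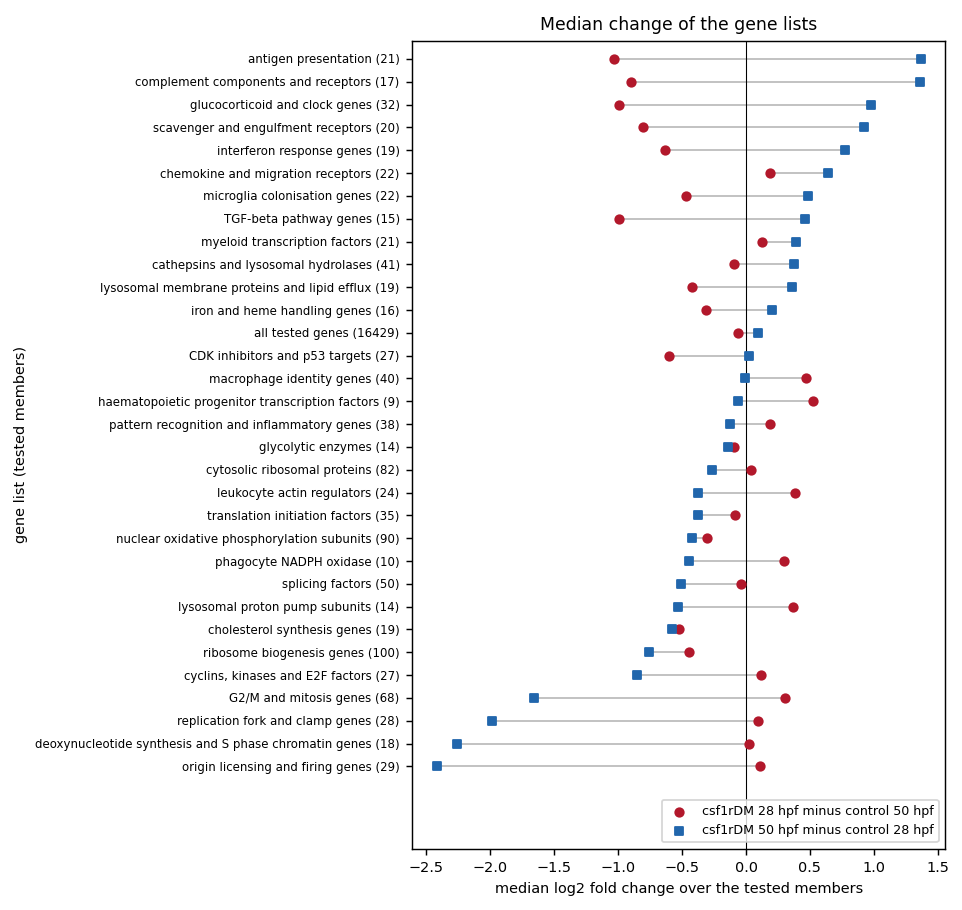
Median log2 fold change of each gene list in csf1rDM 28 hpf minus control 50 hpf (red circles) and in csf1rDM 50 hpf minus control 28 hpf (blue squares), with the number of tested members in brackets. Replication lists lie near 0 in the first and between -1.99 and -2.42 in the second, whereas antigen presentation lies at -1.03 and 1.37.

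Several genes that were higher in the young mutant cells were also high in control at 28 hpf. The list counts that follow stand beside 3.65% of all tested genes that were higher. Of 9 haematopoietic progenitor transcription factors, 4 were higher, and 1 passed without the libraries with muscle RNA. The progenitor factor gene myb had 64.6, 69.1 and 56.5 CPM in csf1rDM at 28 hpf, against 4.06, 5.74 and 4.73 CPM in control at 50 hpf (log2 change 3.70 with SE 0.172, adjusted p by edgeR 1.37e-08). It averaged 4.71 ± 0.688 CPM in csf1rDM at 50 hpf and 35.9 ± 4.17 CPM in control at 28 hpf, so that both young groups were high and both older groups low. The transcription factor gene batf3 had 28, 34 and 24 CPM in csf1rDM at 28 hpf, against 0.938, 1.05 and 1.15 CPM in control at 50 hpf (log2 change 4.76 with SE 0.246, adjusted p by edgeR 2.94e-08) and was low in csf1rDM at 50 hpf too (log2 change -3.24 with SE 0.228, adjusted p by edgeR 3.04e-07). The stem cell leukaemia factor gene tal1 was also higher (log2 change 1.53 with SE 0.164, adjusted p by edgeR 1.62e-05). The remaining progenitor factor genes that were higher, runx1 and erg, did not pass in control at 50 hpf minus control at 28 hpf. The runx1 gene was also higher in csf1rDM at 28 hpf than in control at 28 hpf. Of 10 NADPH oxidase genes, 3 were higher, among them ncf1, which encodes a cytosolic organiser subunit of the oxidase, with 1104, 917 and 997 CPM in csf1rDM at 28 hpf, against 364, 385 and 353 CPM in control at 50 hpf (log2 change 1.45 with SE 0.0939, adjusted p by edgeR 1.98e-07). The leukocyte actin-bundling gene lcp1 had 4784, 4654 and 4929.6 CPM in csf1rDM at 28 hpf, against 1669, 1907 and 1953 CPM in control at 50 hpf (log2 change 1.38 with SE 0.0749, adjusted p by edgeR 4.52e-08). The libraries of ncf1 and lcp1 did not overlap between the groups. Among myeloid factors mafa (log2 change -4.08 with SE 0.26, adjusted p by edgeR 1.74e-07) and runx3 (log2 change -3.90 with SE 0.445, adjusted p by edgeR 2.86e-05) were lower. Neutrophil markers summed to 1336 to 1575 CPM in csf1rDM at 28 hpf and 833 to 1048.5 CPM in control at 50 hpf, with 3 of 13 tested higher, and their part in these values was not tested.

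The largest rises by the rule for named genes held several such genes. The protein disulfide isomerase gene pdia2 had 124, 102 and 66.2 CPM in csf1rDM at 28 hpf, against 0.0625, 0.0957 and 0.128 CPM in control at 50 hpf. The control 50 hpf libraries held 1, 2 and 2 counts, and the scaled ratio of csf1rDM at 28 hpf to them was 983 (95% exact interval 421 to 3030, counting error only). The mfap4 family member mfap4.10 had 34.7, 27.8 and 26.8 CPM in csf1rDM at 28 hpf, against 0.313, 0 and 0.384 CPM in control at 50 hpf (log2 change 7.06 with SE 0.558, adjusted p by edgeR 1.19e-06), and its family shares sequence, so reads may be split. Its value was 6.39 without control 50 hpf replicate 2, 7.67 without control 50 hpf replicate 3 and 6.31 without the libraries with muscle RNA. The uncharacterised genes si:ch211-14a17.10 (76.9, 91.8 and 125 CPM in csf1rDM at 28 hpf, against 2.25, 0.957 and 0.192 CPM in control at 50 hpf) and si:ch1073-429i10.1 (80.7, 160.1 and 96.9 CPM in csf1rDM at 28 hpf, against 0.5, 1.82 and 1.66 CPM in control at 50 hpf) were separated as well. The log2 change of si:ch211-14a17.10 was 6.43, and it was 7.30 without control 50 hpf replicate 1 and 8.71 without the libraries with muscle RNA. All 4 were in the stage direction. The transferrin gene tfa had 115, 85.2 and 60.1 CPM in csf1rDM at 28 hpf, against 0.438, 0 and 0 CPM in control at 50 hpf (log2 change 9.24 with SE 0.718, adjusted p by edgeR 1.03e-06). Without control 50 hpf replicate 1, the other controls of that stage held 0 counts and the tfa value was 13.25. Without control 50 hpf replicate 2 it was 8.57. tfa is also a yolk and liver gene, and that list summed to 61.4 to 119 CPM in csf1rDM at 28 hpf and 3.71 to 5.26 CPM in control at 50 hpf, of which tfa itself made up 60.1 to 115 CPM in the mutant libraries. The part of such cells or of free RNA in this value was not tested.

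Among the largest falls were a pair of genes also known from endothelium. The adhesion molecule gene mcam had 0.607, 2.57 and 0.0713 CPM in csf1rDM at 28 hpf, against 161, 163 and 156 CPM in control at 50 hpf (log2 change -7.10 with SE 0.533, adjusted p by edgeR 7.71e-07), and the guidance receptor gene robo4 had 0, 0.54 and 0.0713 CPM in csf1rDM at 28 hpf, against 46.1, 35.7 and 39 CPM in control at 50 hpf (log2 change -7.35 with SE 0.52, adjusted p by edgeR 4.48e-07). Both were near 0 in the young mutant cells and both lay in the stage direction, with mcam at 51.8 ± 8.47 CPM in csf1rDM at 50 hpf. Without csf1rDM 28 hpf replicate 2 the mcam value was -9.14 and the robo4 value -9.56. Without csf1rDM 28 hpf replicate 3 the mcam value was -6.48, and without the libraries with muscle RNA it was -6.45. Endothelial markers summed to 231 to 247 CPM in csf1rDM at 28 hpf and 687 to 870.3 CPM in control at 50 hpf, and 4 of 19 were lower and 1 higher. Among all tested genes, 5.57% were lower and 3.65% higher. The list median was -1.12. Of these markers, kdrl and cdh5 were at most 0.971 CPM in the young mutant libraries and at most 1.69 CPM in the older controls. The part of endothelial cells in the mcam and robo4 values was not tested. The transglutaminase-like gene tgm2l had 0.729, 0.135 and 3.21 CPM in csf1rDM at 28 hpf, against 249, 232 and 305 CPM in control at 50 hpf (log2 change -7.52 with SE 0.569, adjusted p by edgeR 8.25e-07), and csf1rDM at 50 hpf did not pass against control at 28 hpf (log2 change -0.71 with SE 0.418, adjusted p by edgeR 0.192). The tgm2l value was -6.92 without csf1rDM 28 hpf replicate 2, -9.48 without replicate 3 of that group and -9.71 without the libraries with muscle RNA.

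Genotype-direction genes had the same sign in both pairs of groups. The MHC class I gene mhc1lda had 74.9, 58.1 and 77.4 CPM in csf1rDM at 28 hpf, against 0.0625, 0.0957 and 0.064 CPM in control at 50 hpf, with 4 counts in all in the older controls, and a scaled ratio of 909 (95% exact interval 354 to 3338, counting error only). It averaged 116 ± 15.1 CPM in csf1rDM at 50 hpf and 0.152 ± 0.133 CPM in control at 28 hpf, so each mutant library was high and each control library was near 0. The coagulation factor V gene f5 had 79.4, 95.6 and 127 CPM in csf1rDM at 28 hpf, against 3.56, 1.67 and 0.256 CPM in control at 50 hpf (log2 change 5.77 with SE 0.566, adjusted p by edgeR 7.49e-06), and its value was 6.59 without control 50 hpf replicate 1 and 8.37 without the libraries with muscle RNA. Higher values were also measured for pttg1ipb (18.9, 19.8 and 18.9 CPM in csf1rDM at 28 hpf, against 1.13, 0.335 and 0.512 CPM in control at 50 hpf, log2 change 4.88, or 5.5 without control 50 hpf replicate 1) and si:ch211-42i6.2 (19.8, 31.1 and 32.8 CPM in csf1rDM at 28 hpf, against 0.813, 0.526 and 0.96 CPM in control at 50 hpf). On the other side, caspb, which encodes an inflammatory caspase of zebrafish, had 0.486, 0.878 and 0.143 CPM in csf1rDM at 28 hpf, against 82, 159.8 and 121 CPM in control at 50 hpf (log2 change -7.87 with SE 0.703, adjusted p by edgeR 3.42e-06), and its value was -8.75 without csf1rDM 28 hpf replicate 2. It averaged 2.55 ± 3.06 CPM in csf1rDM at 50 hpf and 258 ± 15.7 CPM in control at 28 hpf (log2 change -6.61 with SE 0.594, adjusted p by edgeR 2.37e-06). The cadherin gene cdh30 had 31.2, 15.8 and 11.7 CPM in csf1rDM at 28 hpf, against 167, 137 and 147 CPM in control at 50 hpf (log2 change -2.97 with SE 0.319, adjusted p by edgeR 1.74e-05), and the glutathione transferase gene gsta.1 had 1.58, 2.57 and 4.21 CPM in csf1rDM at 28 hpf, against 14.4, 29.4 and 23 CPM in control at 50 hpf (log2 change -2.96 with SE 0.33, adjusted p by edgeR 2.36e-05). In each of these the csf1rDM and control libraries did not overlap. The gene si:dkey-23a13.11 had 2, 0 and 0 counts in the young mutant libraries, against 51.9, 35.6 and 51.9 CPM in the older controls, and a scaled ratio of 0.00119 (95% exact interval 0.000144 to 0.0043, counting error only). Genotype and line background cannot be told apart for these genes.

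The other lists held fewer or mixed calls. Of all tested genes, 3.65% were higher and 5.57% lower (9.22% in either direction). A list count near these shares says nothing particular about that list. Of 40 tested macrophage identity genes, 10 were higher and 5 lower in csf1rDM at 28 hpf, a list that holds lcp1, ncf1, marco and mrc1b from above, and 7 passed without the libraries with muscle RNA. Of 15 TGF-beta pathway genes, 4 were lower and 1 was higher, with a median of -0.99. Without the libraries with muscle RNA, 2 passed and the median was -0.29. The inhibitory SMAD gene smad7 had 1.46, 0.743 and 0.285 CPM in csf1rDM at 28 hpf, against 8.75, 9.86 and 9.66 CPM in control at 50 hpf (log2 change -3.58 with SE 0.441, adjusted p by edgeR 5.54e-05), and the type I receptor gene acvrl1 had 5.95, 6.15 and 12.1 CPM in csf1rDM at 28 hpf, against 104, 95.2 and 99.2 CPM in control at 50 hpf (log2 change -3.61 with SE 0.322, adjusted p by edgeR 3.33e-06). Both were separate between the groups, and acvrl1 is also an endothelial gene. Of 38 pattern recognition and inflammatory genes, 6 were higher and 4 lower, and 6 passed without the libraries with muscle RNA. The cytokine gene il1b had 32.5, 13.3 and 14.1 CPM in csf1rDM at 28 hpf, against 68, 125 and 54.2 CPM in control at 50 hpf (log2 change -2.07 with SE 0.385, adjusted p by edgeR 0.00137), and the Toll-like receptor gene tlr21 had 23.6, 36.1 and 24.4 CPM in csf1rDM at 28 hpf, against 102, 87.5 and 89.8 CPM in control at 50 hpf (log2 change -1.72 with SE 0.17, adjusted p by edgeR 8.13e-06). The il1b values were spread widely within both groups but did not overlap. Of 16 iron and heme genes 1 was lower, the iron exporter gene slc40a1, with 711, 841 and 832 CPM in csf1rDM at 28 hpf, against 1869, 1555 and 1762 CPM in control at 50 hpf (log2 change -1.12 with SE 0.0861, adjusted p by edgeR 9.47e-07), and 1 was higher. Without csf1rDM 28 hpf replicate 1, 4 iron and heme genes passed, and 1 passed without control 50 hpf replicate 1 or csf1rDM 50 hpf replicate 3. Leukocyte actin regulators gave 3 higher and 1 lower of 24, and the 3 higher included lcp1 and coro1a. The list summed to 35732 to 36731 CPM in csf1rDM at 28 hpf and 21046 to 24246 CPM in control at 50 hpf, without overlap. Control at 28 hpf held 32958 to 34529 CPM. In this list 1 gene passed without control 50 hpf replicate 1, without csf1rDM 28 hpf replicate 3 and without the libraries with muscle RNA. CDK inhibitors and p53 targets gave 2 lower and 1 higher of 27, the higher one being bbc3, a pro-apoptotic p53 target gene (log2 change 1.64 with SE 0.218, adjusted p by edgeR 0.000104). In this list 5 passed without replicate 1 of either csf1rDM group, and 1, which was lower, without the libraries with muscle RNA. Of 50 splicing factors 1 was lower, of 35 translation initiation factors 1 was lower, and of 14 glycolytic enzymes 1 was higher. None of these 3 lists held a gene past the thresholds without the libraries with muscle RNA, and the translation initiation list held 0 without csf1rDM 28 hpf replicate 1. The intervals of 45 splicing factors and 34 translation initiation factors lay within -1 to 1.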

How the data were processed

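RNA was sequenced from sorted GFP+ macrophages with SMART-seq v4 amplification and read pairs of 75 bases. The submitters' processing notes name CASAVA 1.8, cutadapt, STAR 2.5.4b, Cufflinks 2.2.1, HTSeq 0.11.0, edgeR and the GRCz10 build. The deposited table holds raw counts per Ensembl gene, not normalised by the authors. The strand setting is not given in the sources used here, so overlapping, antisense and paralogous genes are uncertain. Symbols were found for 27000 of 35117 IDs (76.9%).

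Genes were filtered with filterByExpr, scaled with TMM and tested in R 4.3.3 with edgeR 4.0.16 (quasi-likelihood F test), with 1 mean per group over all 12 libraries and Benjamini-Hochberg adjustment over 16429 genes. SEs and 95% intervals come from this fit. Genes passed at an adjusted p under 0.01 and an absolute log2 fold change above 1. DESeq2 1.42.0 was an alternative. The test was tested on simulated data. Exact intervals of ratios treat summed counts as independent molecules and cover counting error only.

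Gene lists were written from general knowledge and described by counts and medians. The comparison, members, lists and tests were chosen with earlier results of these data known. Named genes had a symbol carried by 1 ID and at least 10 CPM on average. They were the 6 largest changes each way whose libraries did not overlap, the 4 largest each way in the stage and genotype directions (by the smaller of both changes), and the 5 largest each way that passed alike in control 50 hpf and csf1rDM 28 hpf against control 28 hpf but not in the main comparison. Members of the lists may be named beside these. Promoter motifs were not analysed here. The values of 1 gene of the lists are not reported here.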

Additional observations from a re-analysis of the deposited data

Results flagged for a closer look

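The stage effect of the MHC class II gene mhc2d4b differed between the genotypes. Between 28 and 50 hpf it changed less in csf1rDM than in control, with an interaction of -2.26 on the log2 scale (SE 0.128, edgeR adjusted p = 5.23e-06, over all tested genes). It averaged 397 ± 48.4 CPM in csf1rDM at 28 hpf, 529 ± 25.5 CPM in csf1rDM at 50 hpf, 769 ± 23.1 CPM in control at 50 hpf and 120 ± 9.88 CPM in control at 28 hpf (SD, n = 3 each). It was 1 of 31 genes looked at for such a difference, and the only one past the thresholds. The rule that named mhc2d4b required a rise in controls and a higher level in csf1rDM than in control at 28 hpf. Both differences enter the interaction, so the choice of this gene favoured a negative value. Allele differences between lines and shared reads also make the counts of MHC genes uncertain. No Dixon test for outlying samples was run, since each group held 3 libraries.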

How the results depend on the processing

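The alternatives covered scaling, tool, low-count filters, libraries in the fit, thresholds, a replicate block and leaving out each library. For the 29 named genes, 577 of 593 values kept their direction and side of the thresholds, 9 passed in addition and 0 lost their call. The other 7 changed sign, in 3 genes that never passed: sesn1 came to -0.070 to 0.14, ccne2 to -0.15 to 0.21 and trip13 to -0.27 to 0.11 when 1 library was left out, and without the muscle libraries sesn1 was at -0.075 and trip13 at 0.18. With the adjusted p threshold at 0.05 and fold changes of any size, 4682 genes passed in csf1rDM 28 hpf minus control 50 hpf, 7052 in csf1rDM 50 hpf minus control 28 hpf, 3839 in control 50 hpf minus control 28 hpf and 3373 in csf1rDM 28 hpf minus control 28 hpf, with 1774 genes in the stage and 1093 in the genotype direction. With only the 6 libraries of the comparison, 1644 passed in control 50 hpf minus control 28 hpf. Leaving out the 4 libraries with muscle RNA gave 656, 469 and 401 genes in the main, control and 28 hpf comparisons, and 243 and 92 in the stage and genotype directions; the lone control 50 hpf library is then assumed to vary like the other groups. Leaving out 1 library in turn gave 1219 to 1604, 2065 to 2664, 781 to 1117 and 436 to 759 genes in the 4 comparisons, and 376 to 460 and 170 to 230 in the stage and genotype directions. The 436 came without control 28 hpf replicate 2, against 670.

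The deviations did not show that replicate numbers pair the samples, and they cannot exclude it. Same-numbered deviations correlated at -0.13 to -0.06 in the main comparison. In csf1rDM 50 hpf minus control 28 hpf the correlations were 0.13, 0.099 and 0.0095. With a replicate block, 1414, 2381, 955 and 581 genes passed in the 4 comparisons, and 419 and 202 lay in the stage and genotype directions.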

Other observations

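Some genes that signalling through ERK is known to induce were read singly. They were chosen after their values were seen, so this is a description of these genes and not of a pathway. The ETS factor gene etv4 had 7.89, 7.56 and 11.6 CPM in csf1rDM at 28 hpf, against 113, 139.9 and 147 CPM in control at 50 hpf (log2 change -3.88 with SE 0.191, adjusted p by edgeR 2.02e-08). It was also lower in csf1rDM at 50 hpf than in control at 28 hpf (log2 change -2.11 with SE 0.175, adjusted p by edgeR 1.23e-06). The feedback inhibitor gene spry4 had 7.16, 5.13 and 5.06 CPM in csf1rDM at 28 hpf, against 35.1, 49.9 and 35.6 CPM in control at 50 hpf (log2 change -2.81 with SE 0.208, adjusted p by edgeR 6.66e-07). For spry4 the pair of csf1rDM at 50 hpf and control at 28 hpf did not pass (log2 change 0.06 with SE 0.192, adjusted p by edgeR 0.812). The related gene dusp6, a phosphatase of ERK, did not pass the fold change threshold (log2 change -0.62 with SE 0.0817, adjusted p by edgeR 9.3e-05). The immediate early gene egr1 had 31.2, 38.2 and 27.9 CPM in csf1rDM at 28 hpf, against 298, 646 and 187 CPM in control at 50 hpf, with wide spread among the controls (log2 change -3.54 with SE 0.466, adjusted p by edgeR 9.43e-05). Immediate early genes as a list summed to 779.6 to 835 CPM in csf1rDM at 28 hpf and 882 to 2309 CPM in control at 50 hpf, with 5 lower and 2 higher of 15. Among all tested genes, 5.57% were lower and 3.65% higher.

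The epithelial genes cdh1 and krt8 were higher in the young mutant cells. The cadherin gene cdh1 had 114, 121 and 125 CPM in csf1rDM at 28 hpf, against 23.6, 23.6 and 22.5 CPM in control at 50 hpf (log2 change 2.37 with SE 0.128, adjusted p by edgeR 4.17e-08), and control at 28 hpf averaged 88.1 ± 12.3 CPM. The keratin gene krt8 had 696, 626 and 674 CPM in csf1rDM at 28 hpf, against 174, 193 and 171 CPM in control at 50 hpf (log2 change 1.89 with SE 0.102, adjusted p by edgeR 4.17e-08), whereas the skin keratin gene krt5 was at 0 counts in all 3 csf1rDM 28 hpf libraries, against 270 counts in all in control at 50 hpf. Keratinocyte markers gave 4 higher and 1 lower of 21, against 3.65% and 5.57% of all tested genes, with a median of 1.60. They summed to 9247 to 10163 CPM in csf1rDM at 28 hpf and 5884 to 6805 CPM in control at 50 hpf, without overlap. Control at 28 hpf held 9120 ± 121 CPM. The part of skin cells in these values was not tested.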
